A study of Mus musculus with 6 samples.

Results

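Trophoblast is the outer lineage of the mouse embryo. Here it was compared between embryonic day 4.5 (E4.5), before implantation, and E4.75, around implantation. The cells were chosen by measured values. Barcodes counted as cells when 1500 genes or more were detected and no more than 15% of their UMIs were mitochondrial. A UMI is a molecular tag that marks 1 captured RNA molecule. Among the kept cells, trophoblast had at least 5 UMIs per 10000 of Tfap2c, Gata3, Rhox6, Rhox9, Phlda2 and Wnt7b together, under 10 of the endoderm genes Cubn, Lrp2, Dab2 and Amn, and fewer of the epiblast genes Pou5f1, Slc7a3, Pim2 and L1td1 than of its own. This gave 582 trophoblast cells of 3517 kept cells in the 2 libraries and of 21856 in the whole series of 6 libraries. The E4.5 library held 181 of them and the E4.75 library 401.

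The embryos of both stages came from B6SJLF1/J females and B6CBAF1/J males, which are first-generation hybrid strains, and carried no engineered allele that the labels name. For E4.5, dams 4 weeks old were superovulated with PMSG and hCG, their uterine horns were flushed, and the cells passed a 20 µm filter. For E4.75, dams were 7 weeks old with no hormone treatment named, embryos were taken out by dissection, and cells were spun down unfiltered. Both were dissociated with Accumax and captured by the 10x Genomics 3′ v3.1 workflow, with 1 library per stage, and the number of embryos in each is not given in the labels. Stage, maternal age, superovulation, recovery, filtering and library therefore cannot be told apart, and no test between the stages was made. Intervals in brackets are exact 95% intervals, Poisson for summed counts and Clopper-Pearson for shares, and cover counting error only.

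Trophectoderm, the blastocyst's outer epithelium, pumps fluid into the cavity, hatches and attaches to the uterine lining. Its polar part lies over the epiblast, is kept dividing by FGF4, and is known for Cdx2, Eomes and Elf5. Its mural part surrounds the cavity, stops dividing and becomes primary giant cells, and Hand1 promotes that fate. Other genes of peri-implantation trophectoderm described here are Nppb, a natriuretic peptide precursor, and Ctsll3 and BC051665, members of the cathepsin L-like cluster of the rodent genome.

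The upstream sequences of 4 genes are shown because the levels of these genes carry the main results. They are the 120 bases before the start site in RefSeq on GRCm38.p6, read 5′ to 3′ on the gene's strand. Nppb lies at chr4:147985780-147985899 (plus strand), Ctsll3 at chr13:60802845-60802964 (minus), BC051665 at chr13:60786365-60786484 (minus) and Fos at chr12:85473770-85473889 (plus). Capitals mark short motifs. TATAAA is the core promoter box near which transcription commonly starts. The letters AGATAA are bound by factors such as Gata3. The letters GGAATG are bound by factors such as Tead4. The letters TGACGT are bound by factors of the cyclic AMP response.
Nppb: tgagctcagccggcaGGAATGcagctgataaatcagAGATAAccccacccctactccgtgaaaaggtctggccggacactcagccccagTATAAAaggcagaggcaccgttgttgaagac
Ctsll3: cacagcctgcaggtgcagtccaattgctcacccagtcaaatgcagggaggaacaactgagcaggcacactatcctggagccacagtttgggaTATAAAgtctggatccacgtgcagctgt
BC051665: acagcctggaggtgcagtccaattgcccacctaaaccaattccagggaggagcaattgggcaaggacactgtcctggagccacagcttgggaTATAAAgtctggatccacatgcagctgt
Fos: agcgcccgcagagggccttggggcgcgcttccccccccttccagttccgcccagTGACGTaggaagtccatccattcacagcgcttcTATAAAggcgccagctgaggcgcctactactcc

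The upstream stretches of Ctsll3 and BC051665 are near copies, with 104 of 121 aligned columns identical (86.0%) and TATAAA beginning 28 bases before the start in both. These genes are neighbours on chromosome 13, 11.9 kb apart with 0 coding genes between them. Their transcripts may also be alike, so reads could have been split or lost between them and their separate levels are uncertain. Nppb holds the core promoter box and the motifs of Gata3 and Tead4, and in the list below it is the 1 gene with GGAATG, which 12.6% of all promoters hold. Over the 250 bases upstream, and on both strands, TATAAA was found in 5 of the 11 matched promoters of the peri-implantation list described below (45.5%) and in 13.0% of all 27025 promoters of the table. AGATAA was found in 3 of these 11 (27.3%) and in 10.3% of all promoters. The 5 with TATAAA include the near copies Ctsll3 and BC051665, so they are not 5 independent cases.

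The libraries differed in depth. Trophoblast cells had a median of 11618 UMIs and 3528 genes at E4.5 and of 40494 UMIs and 6364 genes at E4.75, and together they held 2477767 and 18668844 UMIs. Their median mitochondrial share was 3.35% and 3.80%. The libraries shared 2 kept barcodes, and 0 of them were trophoblast. Trophoblast was 18.7% [16.3, 21.3] of kept cells at E4.5 and 15.7% [14.3, 17.2] at E4.75. The median trophoblast score per 10000 UMIs was 8.50 and 8.78. Just inside the limit, with a score of 5 to 6, were 24 and 55 cells, and 18 and 39 kept cells scored 4 to 5.

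The label was checked against markers that the rule did not use. Krt8, a simple-epithelium keratin, stood at 1174 CPM (UMIs of a gene per 1000000 UMIs summed over the class) at E4.5 and 677 at E4.75, against 5.41 and 15.6 in epiblast and 88.7 and 75.0 in endoderm of the same libraries. Elf5, a trophoblast stem cell factor, stood at 264 and 286 CPM, and Eomes at 381 and 409. Markers of endoderm summed to 23.0 and 15.3 CPM over 10 genes. All 8 blood genes had 0 UMIs at E4.5, and they summed to 0.536 CPM at E4.75. Lists for uterine stroma, leukocytes and endothelium summed to 10.9 and 4.61, 53.3 and 29.5, and 102 and 107 CPM. Most of the leukocyte sum came from Cd52 and most of the endothelium sum from Pecam1, while Ptprc was at 0 at both stages. Cd52 stood at 45.6 CPM and Pecam1 at 77.9 at E4.5. At E4.75 they stood at 21.6 and 68.9 CPM without the cells scored on Wnt7b alone that are described next. The epiblast list summed to 2204 and 1289 CPM, with 3 of its 8 genes measured, of which Utf1 and Pou3f1 were higher and Dppa5a lower at E4.75.

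A small set of E4.75 cells stood apart from the rest. In 15 of the 401 cells the trophoblast score came from Wnt7b alone, a WNT ligand that uterine epithelium also makes, with 0 UMIs of the other 5 genes, whereas E4.5 had 0 such cells. Their median depth was 6532 UMIs against 43600 in the other 386, and they held 0.538% of the class's UMIs. A fixed list of 13 uterine epithelium genes summed to 4221 CPM in them, with a UMI in all 15, and to 31.5 CPM in the others. Elf5, Hand1 and Cdx2 had 0 UMIs in them and Eomes 1, while Pax8 had 175 of its 187 UMIs there. Of 12 trophoblast markers that the rule did not use, 5 were at 0 in them and 7 were detected, and the 12 summed to 2140 CPM against 4068 in the others. Krt8, which epithelia in general express, was at 408 CPM in them and 678 in the others. They thus carried uterine epithelium genes and lacked Elf5, Hand1 and Cdx2, so their trophoblast label is doubtful. The results they touch are also given without them. The lists kept their counts of higher and lower members without them except that the peri-implantation list had 9 lower members, the G2 and M phase list 5 higher, the DNA methylation and polycomb list 1 higher in place of 0, and the actomyosin list 0 lower in place of 1. The later libraries E5.0 and E5.25 held 7 and 9 cells of the same kind.

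Of 8534 genes measured at 10 CPM or more in either stage, 145 were at least 2-fold higher at E4.75 (1.7%) and 482 at least 2-fold lower (5.65%) on the scale of log2(CPM + 10). All log2 ratios and calls below are on that scale, whereas folds are plain ratios of CPM, and the scale understates changes of low genes. The median over all measured genes was a log2 ratio of 0.12. Without the 15 cells the counts were 136 and 492. With every cell thinned to 5000 UMIs, 314 genes were higher and 484 lower, and the cause of the larger higher count was not tested. Epiblast of the same libraries had 2.13% of 9023 genes higher and 5.55% lower, and endoderm had 2.43% of 9223 higher and 4.25% lower. Of the genes lower in trophoblast, 184 of 482 (38.2%) were also at least 2-fold lower in both other lineages. Of the higher genes, 34 of 145 (23.4%) were at least 2-fold higher in both. The part shared by all 3 lineages was thus larger among the lower genes, and 27 of the 78 genes that were at least 4-fold lower in trophoblast were at least 4-fold lower in all 3 lineages.

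Few genes moved farther in trophoblast than in both other lineages by a further 2-fold. There were 55 of the 482 lower genes and 15 of the 145 higher ones. Without the cells scored on Wnt7b alone, the lower count was 57 but the higher count was 5, namely Fosb, Irx1, Klf4, Klf2 and Metrnl (named after their values were seen). Prap1, a proline-rich secreted protein of uterine and gut epithelium, had a log2 ratio of 2.44 with all cells and 0.92 without the 15, which held 77.7% of its E4.75 UMIs. Gjb2, a gap junction connexin, went from 1.84 to 0.46, and Mecom, a zinc finger factor, from 1.49 to 0.16. In all, 9 of the 15 genes were below 2-fold without these cells. Of the 15 cells, 9 had the depth for the thinned shares given below, and without them those shares at E4.75 were from 384 cells, with Hand1 in 87.8% in place of 85.8%, Irx1 in 50.0% in place of 48.9% and Ctsll3 in 10.7% in place of 10.4%.

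**Figure D1:**
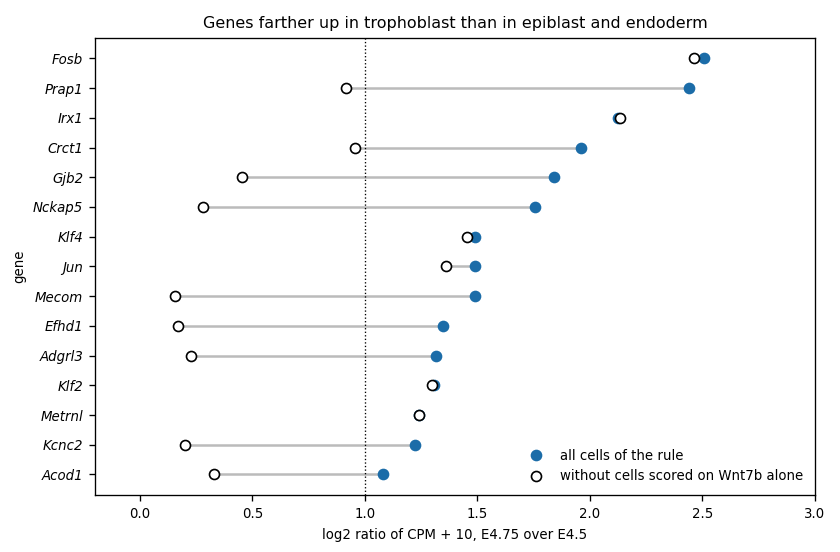
Log2 ratio of CPM + 10, E4.75 over E4.5 (x axis), for the 15 genes (y axis) that were at least 2-fold higher in trophoblast and 2-fold farther up than in epiblast and endoderm. Filled points use all cells and open points leave out the 15 cells scored on Wnt7b alone, where Prap1 lies at 0.92 instead of 2.44 while Irx1 stays at 2.13, and the dotted line marks 2-fold.

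The gene list with the lowest median held 14 peri-implantation trophectoderm genes, of which 12 were measured. It had 8 lower members (66.7%) and 0 higher ones, against 5.65% lower among all genes. Its median log2 ratio was -1.45 in trophoblast, -0.01 in epiblast and -0.48 in endoderm. Like the other lists, it was chosen with earlier results of these data known, so its share of lower members is a description only. Nppb stood at 376 CPM [352, 401] at E4.5 and 73.1 [69.3, 77.1] at E4.75, 5.14-fold lower [4.73, 5.60]. Sct, which encodes secretin, stood at 161 CPM [146, 178] and 29.9 [27.5, 32.5]. Dppa1, a small gene of the early embryo that lies 18.5 kb from the list member BC053393 on chromosome 11, stood at 88.0 CPM [76.7, 100] and 13.6 [11.9, 15.3]. All 3 had at most 11 CPM in the other lineages at either stage.

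Ctsll3 stood at 365 CPM [342, 390] at E4.5 and 129 [124, 134] at E4.75. BC051665 stood at 680 CPM and 244, and BC053393 at 333 CPM and 110. Tspan8, a tetraspanin, stood at 263 CPM and 89.7, and Calcoco2, an autophagy receptor gene, at 79.1 and 15.1. The measured members short of 2-fold were Krt19, a keratin, Basp1, a membrane-bound cytoskeletal protein, Tspan1 and Cited1, at log2 ratios of -0.55, -0.41, -0.96 and 0.26. Slc5a1 and Rbm44 were below 10 CPM at both stages.

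These levels lay on a course over all 6 libraries that was not the same for every member. Ctsll3 was at 1.70 CPM in the 27 trophoblast cells of E3.5, 4.58 at E5.0 and 0 UMIs at E5.5. BC051665 was at 460 CPM at E3.5 and 3.67 at E5.0, and Dppa1 at 426 and 1.09. Nppb was at 1.70 CPM at E3.5, and after E4.75 it stood at 109, 145 and then 46.0 CPM in the last 3 libraries. The E4.75 values of Ctsll3, BC051665 and Dppa1 thus lay between a high E4.5 level and a level under 5 CPM at E5.0.

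**Figure D2:**
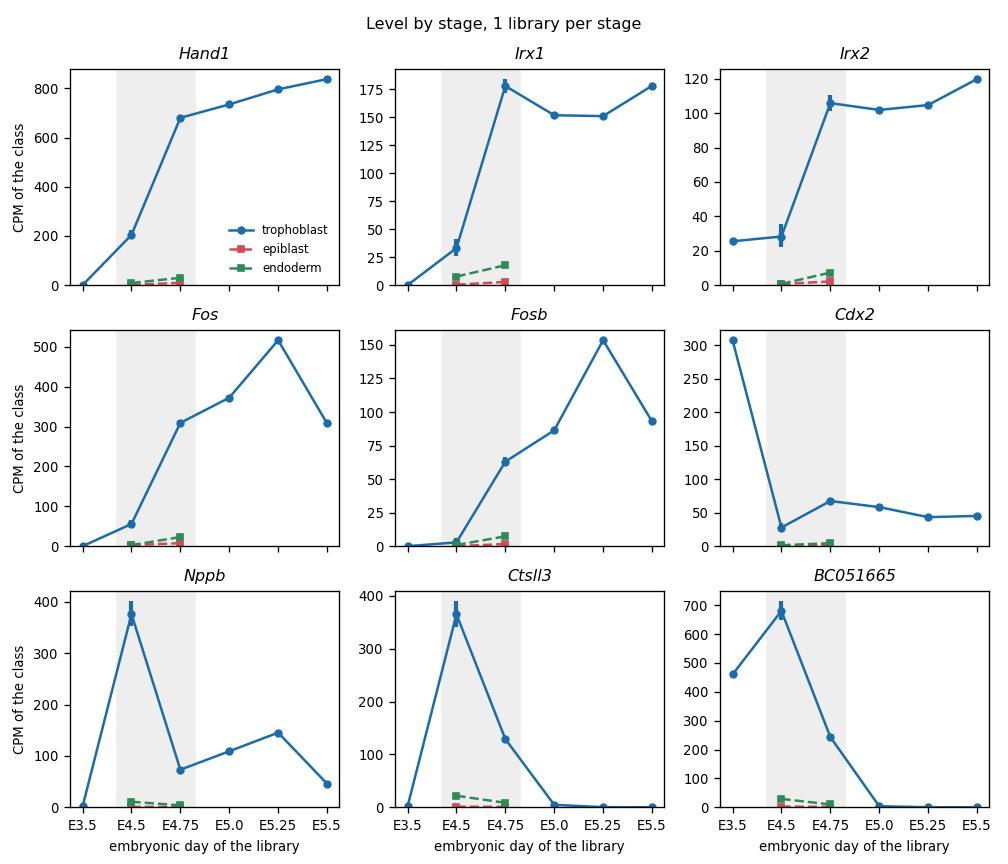
Level of 9 genes in CPM of the summed class (y axis, from 0) by library (x axis, evenly spaced although the stages are not), with trophoblast in blue and, at E4.5 and E4.75 only, epiblast in red and endoderm in green. Vertical blue bars are exact 95% Poisson intervals at E4.5 and E4.75. Hand1, Irx1, Irx2, Fos and Fosb step up inside the grey band, whereas Nppb, Ctsll3 and BC051665 step down, and Ctsll3 and BC051665 are under 5 CPM at E5.0.

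The lower sums came with smaller shares of cells that held the genes. Cells were thinned to 5000 UMIs each for this, which left out 6 of 181 and 8 of 401 cells. Ctsll3 then had a UMI in 24.6% of cells [18.4, 31.6] at E4.5 and 10.4% [7.59, 13.9] at E4.75, and in 0.725% and 0.468% of epiblast cells. In the cells that held it, the median was 9 UMIs at E4.5 and 7 at E4.75. BC051665 was held by 38.3% [31.1, 45.9] and 11.7% [8.70, 15.3] of cells, with a median of 6 and 13 UMIs in those cells. Unthinned, Ctsll3 was found in 58 of 181 cells and in 58 of 401, and Dppa1 in 57 and 35, although the later cells were deeper. For Ctsll3 and BC051665 the share of holding cells was lower by more than the amount per holding cell, which for BC051665 was higher. Nppb and Sct were lower in both respects, with means of 5 and 3.27 and of 2.34 and 1.40 UMIs per holding cell.

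The 8 lower genes were held together, a pattern looked at after their values were seen. They were picked as lower in this same contrast, so a smaller share of E4.75 cells holding them was largely set by that choice. At least 3 of the 8 were found in 80 of 175 thinned cells at E4.5 (45.7% [38.2, 53.4]) and in 46 of 393 at E4.75 (11.7% [8.70, 15.3]). Without the cells scored on Wnt7b alone it was 46 of 384 cells. Near this limit at E4.75 lay 30 cells with 2 genes and 8 with 3. The 46 cells, picked for holding these genes, held 383 of the 384 thinned UMIs of Ctsll3, 736 of 746 of BC051665 and 157 of 196 of Nppb. They also held genes that did not enter the count. Aqp3, a water and glycerol channel of trophectoderm, was found in 47.8% of them and in 6.40% of the 203 cells with 0 of the 8 genes, and Lgals3, a galectin of mural trophectoderm, in 84.8% and 53.2%. Cdx2 was found in 2.17% of them and 30.0% of the 203, Irx1 in 23.9% and 44.8%, and Fos in 73.9% and 46.8%, while Elf5 was at 67.4% and 69.5%. In the 144 cells between, with 1 or 2 of the genes, Irx1 was found in 62.5%, above both other groups. Cdx2 was found in 17.4% of these 144 cells and Fos in 52.1%. Between cells with at least 3 and with 0 of the genes, the same order held at E4.5 for Aqp3 (60.0% and 13.9%), Cdx2 (7.50% and 16.7%) and Fos (27.5% and 5.56%).

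**Figure D3:**
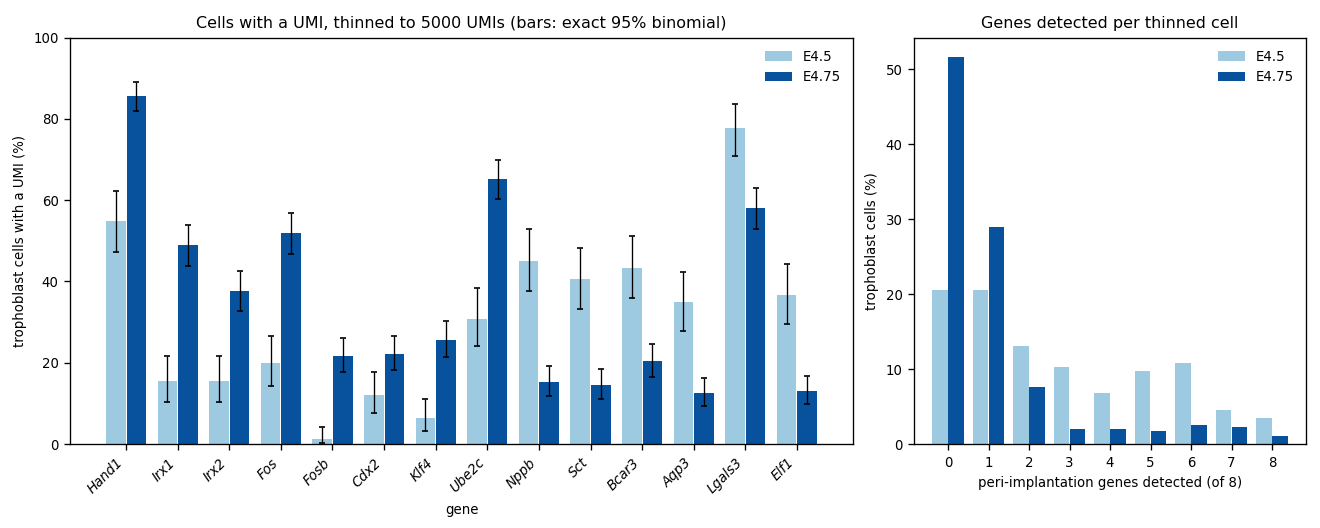
Left, percentage of trophoblast cells with a UMI of each gene (y axis, from 0) after thinning to 5000 UMIs per cell, at E4.5 (light, 175 cells) and E4.75 (dark, 393 cells), with exact 95% binomial intervals for counting error only. Right, percentage of the same cells by how many of the 8 lower peri-implantation genes they held, where 0 genes were held by 20.6% of cells at E4.5 and 51.7% at E4.75.

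Hand1, the basic helix-loop-helix factor of giant cells (chr11:57828705-57832818 on GRCm38), was higher. It stood at 204 CPM [187, 223] at E4.5 and 681 [669, 693] at E4.75, 3.33-fold higher [3.05, 3.65], and was at 0 UMIs at E3.5. It was also higher in the other lineages from low levels, at 0.901 and 9.29 CPM in epiblast and 8.53 and 29.8 in endoderm. After thinning it was found in 54.9% [47.2, 62.4] and 85.8% [81.9, 89.1] of cells, and in 0.362% and 2.69% of epiblast cells. In the list of 25 ectoplacental cone and giant cell genes, 12 were measured. Hand1 was the 1 higher member and Gcm1, the labyrinth factor, the 1 lower member, at 15.3 and 0.911 CPM. Each was 8.33% of the measured members, against 1.7% higher and 5.65% lower among all genes, and nothing is read from these counts. Prl3d1, the placental lactogen of giant cells, stood at 52.9 and 35.8 CPM, and Prl2c2 at 0 UMIs at both stages. Ascl2, a factor of the ectoplacental cone, stood at 13.3 and 24.9 CPM.

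The Iroquois homeobox genes Irx1 and Irx2 were both higher. Irx1 (chr13:71957921-71963723) and Irx2 (chr13:72628820-72634198) lie 665.1 kb apart with 0 coding genes between them. Irx1 stood at 33.1 CPM [26.3, 41.1] and 178 [172, 184], 5.38-fold higher [4.32, 6.78], and Irx2 at 28.3 CPM [22.0, 35.7] and 106 [101, 111]. Their log2 ratios of 2.13 and 1.60 stood beside 0.32 and 0.19 in epiblast and 0.65 and 0.69 in endoderm. At E3.5 Irx1 had 0 UMIs, whereas Irx2 had 15 of the 588872 UMIs of the class. From E5.0 to E5.5 Irx1 stayed between 151 and 178 CPM, and Irx2 between 102 and 120. After thinning Irx1 was found in 15.4% [10.4, 21.6] and 48.9% [43.8, 53.9] of cells. At E4.75 it was found in 54.9% of the cells that held Hand1 and 12.5% of those that did not (14.9% without the cells scored on Wnt7b alone), and at E4.5 in 24.0% and 5.06%. Irx2 was in 41.7% of the Irx1 cells and 33.8% of the others at E4.75.

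Irx1 and Hand1 were higher in cells with a UMI of Cdh5, a cadherin of endothelium that giant cells also express. Such cells were 89 of 181 and 251 of 401, and they were deeper, with medians of 14754 against 9473 UMIs and 44203 against 37513. With Cdh5, Irx1 stood at 47.5 and 254 CPM, and without it at 15.9 and 33.0. Hand1 stood at 279 and 892 CPM with it and at 115 and 276 without. The cells scored on Wnt7b alone all lacked Cdh5, and leaving them out put the E4.75 cells without Cdh5 at 33.5 CPM of Irx1 and 280 of Hand1. Leaving out cells with a UMI of a giant cell gene, a set that did not count Hand1, kept 92 and 149 cells. That was close to the 92 and 150 cells without Cdh5, so it was not a separate check. In the cells kept, the log2 ratio of Irx1 was 0.73 and that of Irx2 0.67, so that neither reached 2-fold there.

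Of 19 measured stem and polar factors, 2 were higher (10.5%, against 1.7% of all genes) and 0 lower (against 5.65%), and the median log2 ratio was 0.11, near the 0.12 of all genes. The higher ones were Cdx2 and Sall4. Eomes had a log2 ratio of 0.10, Elf5 of 0.11 and Tead4, the factor that starts the trophectoderm programme, of 0.06. Cdx2 stood at 27.8 CPM [21.7, 35.2] and 67.4 [63.7, 71.2], and both were far under its 307 CPM at E3.5. Its log2 ratio was 1.03, and it was -0.26 in cells with a trophoblast score of at least 10. Sall4, a zinc finger factor of stem cells, stood at 60.9 and 151 CPM and was also higher in epiblast and endoderm, at log2 ratios of 0.55 and 0.78. Of the genes the rule used, which are given as a description, Gata3 stood at 318 and 217 CPM, Tfap2c at 272 and 349, Phlda2 at 146 and 262, Wnt7b at 117 and 108, Rhox6 at 41.2 and 33.8, and Rhox9 at 10.9 and 7.34. Rhox5, an X-linked homeobox gene outside the rule, stood at 345 and 608 CPM.

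**Figure D4:**
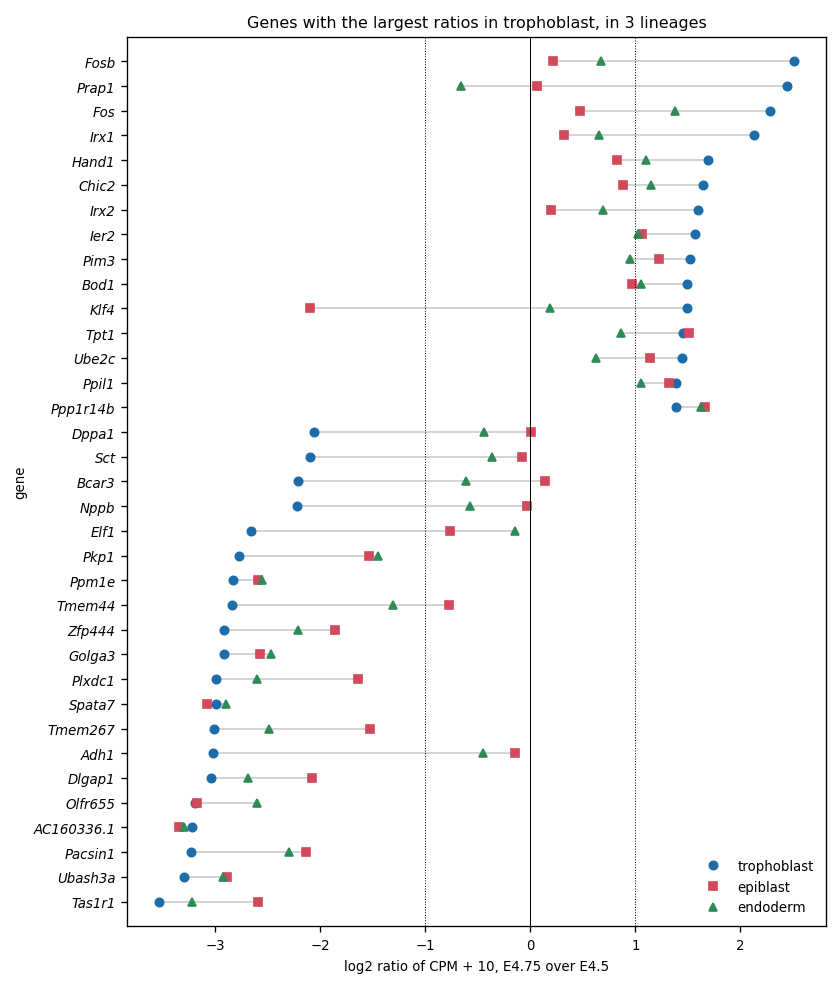
Log2 ratio of CPM + 10, E4.75 over E4.5 (x axis), for the genes with the largest ratios in trophoblast (y axis), shown in trophoblast (blue circles), epiblast (red squares) and endoderm (green triangles) of the same libraries, with 1 library per stage. Spata7 and AC160336.1 lie together near -3 in all 3 lineages, whereas Adh1, Nppb, Sct and Dppa1 lie low in trophoblast alone and Klf4 has opposite signs in trophoblast and epiblast.

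The list of 20 immediate early and dissociation stress genes had the highest median log2 ratio, 1.02, against 0.41 in epiblast and 0.47 in endoderm. Of 18 measured members, 9 were higher (50.0%, against 1.7% of all genes) and 2 lower (11.1%, against 5.65%). Nothing is read from the lower count. Fos, the transcription factor whose upstream sequence holds TGACGT, stood at 55.7 CPM [46.8, 65.8] and 309 [301, 317], 5.55-fold higher [4.69, 6.62], with 2.70 and 7.59 CPM in epiblast and 2.67 and 23.0 in endoderm. Fosb stood at 2.83 CPM [1.14, 5.82] from 7 UMIs and at 63.0 [59.4, 66.7]. Jun stood at 9.28 and 44.1 CPM, Junb at 63.8 and 182, and Ier2 at 46.4 and 157. Fos, Fosb and Jun were at or above their E4.75 CPM in the E5.0 and E5.25 libraries, which were also dissected and unfiltered, with Fos at 372 and 517 CPM. In the E5.5 library, which was dissected and filtered, Fos stood at 308 CPM. In the 27 trophoblast cells of the E3.5 library, which was filtered, Fos had 0 UMIs. After thinning Fos was found in 20.0% [14.3, 26.7] and 51.9% [46.8, 56.9] of trophoblast cells. The parts of recovery, filtering and stage in these differences were not tested.

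Not every gene of that list moved together. The heat shock genes Hspa1a and Hspa1b were lower, at 16.5 and 1.82 CPM and at 25.4 and 6.43. In cells without a giant cell gene, Hspa1a had a log2 ratio of 0.055. Hspa8, the constitutive chaperone, was higher in all 3 lineages, with log2 ratios of 1.11, 1.17 and 1.31. Klf4, a Kruppel-like factor, stood at 17.0 CPM [12.2, 22.9] and 65.7 [62.1, 69.5] in trophoblast, at 49.3 and 3.90 in epiblast and at 35.9 and 42.3 in endoderm. Klf2 stood at 25.8 and 78.5 CPM.

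Of 18 measured G2 and M phase genes, 4 were at least 2-fold higher (22.2%, against 1.7% of all genes), 0 were lower and 14 did not reach 2-fold. The median log2 ratio was 0.73, against 0.38 in epiblast and 0.35 in endoderm. Ube2c, an ubiquitin-conjugating enzyme of the anaphase-promoting complex, stood at 116 CPM [103, 130] and 333 [325, 342], and was at least 2-fold higher in epiblast too. Birc5 stood at 140 and 335 CPM, and the mitotic kinases Aurka and Plk1 at 49.2 and 124 and at 43.6 and 103. Top2a and Cenpf had log2 ratios of -0.22 and -0.02. Of 18 S phase genes, 1 was higher (5.56%, against 1.7% of all genes), and nothing is read from this count. It was cyclin E1 (Ccne1, 92.8 and 218 CPM), which was higher in epiblast and endoderm too. Cdkn1c, an imprinted inhibitor of cell division, stood at 135 and 55.6 CPM in trophoblast and at 30.0 and 80.5 in epiblast.

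Of 9 measured fluid transport genes of the blastocyst, 2 were lower, Aqp3 and Scnn1a (22.2%, against 5.65% of all genes), and 0 were higher. In the lists below counts of 0 are close to what the shares over all genes, 1.7% higher and 5.65% lower, give for lists of this size, and nothing is read from them. Krt8, Krt18 and Krt7 had log2 ratios of -0.79, -0.34 and -0.34, and 0 of 10 measured keratin and desmosome genes reached 2-fold. Aqp3 stood at 102 CPM [89.5, 115] and 28.4 [26.0, 30.9], and Scnn1a, a subunit of the epithelial sodium channel, at 27.4 and 2.14, and Scnn1a was lower in epiblast and endoderm as well. Of 21 adhesion genes 2 were lower (9.52%), the galectins Lgals1 (2053 and 867 CPM) and Lgals3 (584 and 211 CPM), which were lower in endoderm as well, and 0 were higher, with Itgb1 at 126 and 142 and Cdh1 at 370 and 406 CPM. Of 15 tight junction and polarity genes 0 reached 2-fold. Among 12 measured matrix and protease genes 0 did, and Mmp9, the protease of invading giant cells, was below 10 CPM at both stages.

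In the BMP list 2 of 10 genes were higher (20.0%, against 1.7% of all genes), the target Id1 (7.67 and 27.9 CPM) and the decoy receptor Bambi (1.61 and 18.6 CPM), and Id1 was higher in the other lineages too. Among 5 WNT, 6 NODAL and 8 EGF and LIF genes, 0 reached 2-fold, and Egfr stood at 167 and 143 CPM. Fgfr2, the receptor for FGF4 in polar trophectoderm, had a log2 ratio of -0.26 against -1.09 in epiblast. Of 19 oxidative phosphorylation genes 3 were lower (15.8%, against 5.65% of all genes), Ndufa1, Uqcrq and Cox6c, and the median was -0.51, against -0.29 in epiblast and -0.59 in endoderm. Of 17 glycolysis genes 1 was higher and 1 lower (5.88% each, against 1.7% and 5.65% of all genes). Nothing is read from these counts. Pgam1 was higher in all 3 lineages and Slc2a3, a glucose transporter, was lower, at 167 and 63.0 CPM. Of 15 integrated stress response genes 1 was lower (6.67%), the seryl-tRNA synthetase gene Sars. The median of this list was 0.08 in trophoblast, -0.88 in epiblast and -0.76 in endoderm. Myc stood at 169 CPM [153, 186] and 55.8 [52.5, 59.3], with a log2 ratio of -1.44 beside -0.41 and -0.38 in epiblast and endoderm.

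**Figure D5:**
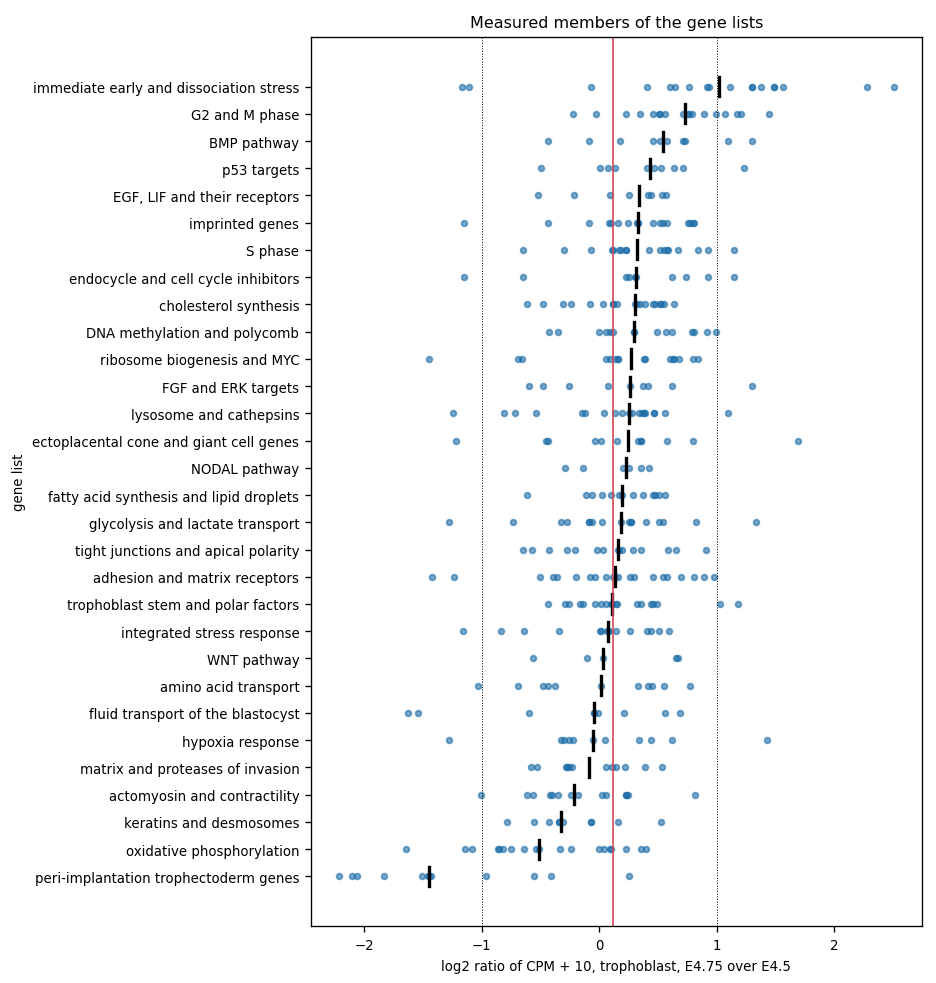
Log2 ratio of CPM + 10 in trophoblast, E4.75 over E4.5 (x axis), for each measured member (points) of the gene lists with at least 5 measured members (y axis), with the list's median as a black bar. The red line is the median of all measured genes, 0.12, and the dotted lines mark 2-fold. The peri-implantation trophectoderm list lies lowest at -1.45 and the immediate early list highest at 1.02.

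The lowest ratios belonged mainly to genes that were also lower in epiblast and endoderm. Tas1r1, a taste receptor gene, stood at 273 CPM and 14.5 in trophoblast, 104 and 8.93 in epiblast and 160 and 8.22 in endoderm. Spata7, a ciliary gene, stood at 584 and 64.8 CPM in trophoblast and at 865 and 93.9 in epiblast. AC160336.1 and the olfactory receptor gene Olfr655 had log2 ratios of -3.22 and -3.19, with -3.35 and -3.17 in epiblast. These differences were thus shared by all 3 lineages of the libraries.

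Bcar3, an adaptor of adhesion signalling, and Elf1, an ETS factor, were at least 4-fold lower in trophoblast and less than 2-fold lower in the other lineages. Bcar3 stood at 249 CPM [229, 269] and 46.1 [43.0, 49.3], with log2 ratios of -2.21 in trophoblast, 0.14 in epiblast and -0.61 in endoderm. Elf1 stood at 190 CPM [173, 208] and 21.7 [19.7, 24.0], while it was at 64.9 and 34.1 CPM in epiblast and at 192 and 173 in endoderm. After thinning Bcar3 was found in 43.4% [36.0, 51.1] and 20.4% [16.5, 24.7] of cells. Adh1, an alcohol dehydrogenase, stood at 72.6 CPM from 180 UMIs and at 0.214 CPM from 4 UMIs, but 4 cells held at least 50% of its E4.5 UMIs.

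Ppil1, a splicing factor, was at least 2-fold higher in all 3 lineages, at 48.4 and 143 CPM in trophoblast. Chic2, a membrane protein, stood at 38.7 and 142 CPM in trophoblast, at 25.8 and 56.0 in epiblast and at 45.7 and 114 in endoderm, with the epiblast ratio short of 2-fold on the log2(CPM + 10) scale. Tpt1, a growth-related protein, stood at 1569 and 4330 CPM, and its endoderm log2 ratio was 0.86, also short of 2-fold. The genes called higher had short spans, with a median of 9104 bases in the annotation against 26887 for all measured genes, and the genes called lower 22971. Of the called genes 99.3% of the higher and 83.0% of the lower were protein-coding, against 97.3% of all measured genes.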

How the data were processed

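UMI counts per gene and barcode were used as the authors deposited them, unnormalised, per the file headers. The headers and the submitters' processing notes name Cell Ranger 7.1.0 and the builds mm10, GRCm38 and hg38, without a role for hg38. All matrices list 32285 genes. Counts of trophoblast cells were summed per library and expressed as CPM, and log2 ratios are of CPM + 10. Folds are plain ratios of CPM. Doublets were not removed, and leaving out the 8% of cells with the most UMIs was tried instead. Epiblast had an epiblast score of at least 5 with an endoderm score under 10 and a trophoblast score under 5, and endoderm had an endoderm score of at least 10 that exceeded both others. With 1 library per stage no p-value is given.

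The members, the 38 gene lists and the rules were chosen with earlier results of these data known. Genes were picked for naming by fixed rules, and the text names only some of those picked. Candidates for the first 3 sets had 50 CPM or more in the higher stage and 0.2 or more of the other lineages' level. The first set was the 15 highest and 15 lowest ratios. The second was the 8 in each direction at least 4-fold different and farthest from both other lineages. The third was up to 6 in each direction at least 4-fold different in all 3 lineages. The last was up to 4 members of each list in each direction at 2-fold, or else its 3 most abundant. Gene models without a name, ribosomal, mitochondrial and haemoglobin genes and the 14 genes of the rule were left out of the first 3 sets. Positions are from GENCODE M21 on GRCm38 and upstream sequences from RefSeq. Python 3.11.15, numpy 2.4.6, scipy 1.17.1 and pandas 2.3.3 were used, the calling step was tested on simulated data, and 20 alternatives were tried, 3 of them chosen after seeing the data.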

Additional observations from a re-analysis of the deposited data

Results flagged for a closer look

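Genes with opposite calls in trophoblast and in another lineage of the same 2 libraries were singled out, and the difference between the lineages was not tested. Klf4 was higher in trophoblast, with a log2 ratio of 1.49, and lower in epiblast, at -2.09. Cdkn1c was lower in trophoblast, at -1.15, and higher in epiblast, at 1.18. In trophoblast cells with a UMI of Cdh5 the log2 ratios were 1.75 for Klf4 and -1.59 for Cdkn1c. In those without one they were 0.78 and -0.28, so that neither gene reached 2-fold there. Elmo1, an engulfment and cell motility adaptor, was lower in trophoblast, at -1.42, and higher in epiblast and endoderm, at 1.07 and 1.03. Elmo1 stood at 85.6 and 25.7 CPM in trophoblast and at 7.12 CPM at E5.0.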

How the results depend on the processing

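No paired analysis was possible because each stage is 1 library. The counts of higher and lower genes (145 and 482) changed with the scale and with which cells entered. They were 427 and 796 with a pseudocount of 1 CPM and 32 and 120 with 50 CPM, and 215 genes were lower among those measured at 50 CPM. The higher count was 376 with a trophoblast score of at least 10, 262 without cells with a giant cell gene, 267 for the mean of per-cell CPM and 314 for thinned cells, and the cause was not tested. With median-of-ratios scaling 210 were higher and 427 lower, and the share of lower genes among those called was 67.0% against 76.9%. E5.0 in place of E4.75 gave 406 and 731, and E3.5 in place of E4.5, with 27 cells, gave 1131 and 1090. The share of lower genes was 58.5% at a score of at least 10, 65.5% without giant cell gene cells, 62.8% for the per-cell mean and 60.7% for thinned cells. At the shallower E4.5, 0 UMIs in the class allow a level of up to 1.49 CPM. Of 70 called genes among those picked for naming, 35 kept their call under all 18 settings that kept both stages.

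Against E3.5 the log2 ratios changed sign for Pkp1 (0.13), Sall4 (-0.54), Nppb (2.83), Cdx2 (-2.04), Cdkn1c (2.49), Gcm1 (0.13), Lgals3 (0.41), Slc38a2 (3.19) and Hspa1b (0.72), and so did, among lists with a median beyond 0.25, those of the lysosome (-0.36), FGF and ERK (-0.37), cholesterol (-0.31) and DNA methylation and polycomb (-0.0266) lists. With E5.0 the FGF and ERK (-0.0949) and p53 (-0.0496) medians changed sign. Without cells with a giant cell gene so did Hspa1a (0.055) and the EGF and LIF median (-0.00799), and at a trophoblast score of at least 10 so did Cdx2 (-0.26).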
